A study of Mus musculus with 7 samples.

Results

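The 10 genes described here encode surface ligands that tell T cells whether to become activated: *Icosl*, *Cd80*, *Cd86*, *Cd274*, and *Pdcd1lg2* of the B7 family, and *Tnfsf4*, *Tnfsf9*, *Tnfsf14*, *Cd70*, and *Tnfsf11* of the TNF superfamily. They were chosen by name, with earlier results of these data known, and all 10 were found among the 55367 genes of the count table. RNA was measured in CD8+ T cells from the spleen of Foxp3 YFP/cre mice, a strain shared by both groups whose YFP and Cre are driven by *Foxp3*, the factor of regulatory T cells. The cells received vesicles for 48 hours, at 100 μg/mL as the labels state, whereas the methods speak of the amount found in each kind of spleen. In 4 libraries the cells received HCME-sEVs, small extracellular vesicles from the spleens of healthy mice. In 3 libraries they received LME-sEVs, whose source was the spleen of Eμ-*TCL1* mice with leukemia, a model of chronic lymphocytic leukemia in which an immunoglobulin enhancer drives the *TCL1* transgene in B cells. The study's text gives the group sizes the other way round, and the labels were followed. The labels describe sorting by flow cytometry and the methods negative selection of CD8+ T cells. According to the methods, CD8+ T cells were cultured on anti-CD3 with a CD28 antibody and IL2, so both groups would have received a stimulus through CD28 that does not need these ligands. Mice were 8 to 10 weeks old unless the methods say otherwise, and the age of the donors of these cells is not given separately. The sources used here do not say whether each library came from its own animal, so p-values measure the spread between these libraries, which may be technical.

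T cells need a signal from the antigen receptor together with costimulation, which is delivered when ligands on another cell bind receptors on the T cell. B7 ligands can work in either direction: CD80 and CD86 activate through CD28 and restrain through CTLA-4, ICOSL activates through ICOS, and PD-L1 (*Cd274*) and PD-L2 (*Pdcd1lg2*) restrain through PD-1. The TNF superfamily ligands act through receptors that activated T cells display, and T cells that have been activated can themselves make several of these ligands.

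Libraries held between 3689831 and 5030522 counts, and the smallest level that can be shown, set at 3 counts, was between 0.582 and 0.807 CPM (counts scaled to a common library total, with TMM factors that correct for composition). This limit covers counting error only. The T-cell genes *Cd3e* and *Cd8a* were found at 424 counts or more in every library, whereas *Cd4* had at most 3 counts and the B-cell gene *Cd79a* at most 2. Of 4 CD4 and regulatory T-cell markers only *Zbtb7b* was tested. Its mean was 8.21 CPM with HCME-sEVs and 14.9 CPM with LME-sEVs, a log2 fold change of 0.87 (FDR = 0.0241, edgeR). *Foxp3* and *Ccr8* of the same list lay the other way, near the limit. *Foxp3* had 0 to 1 counts with HCME-sEVs and 0 with LME-sEVs, and *Ccr8* had 0 to 2 and 0. Another B-cell marker, *Cr2*, had 28 to 56 counts in a library. *Itgax*, a dendritic-cell marker, had 0 to 3 counts with HCME-sEVs and 4 to 11 with LME-sEVs, and the myeloid marker *Itgam* 0 to 1 and 6 to 8. Of 13 monocyte, macrophage, and dendritic-cell markers, 7 never reached 3 counts in a library, and *Fcgr1* was at 0. The summed level of these 13 markers was between 8.62 and 13.5 CPM with HCME-sEVs and between 13.7 and 16.0 CPM with LME-sEVs. For 13 B-cell markers it was between 249 and 292 CPM and between 334 and 355 CPM, and the immunoglobulin genes *Ighm* and *Igkc* rose by 0.38 (FDR = 0.00430) and 1.06 (FDR = 0.0158) on the log2 scale in edgeR. Without these 2 genes it was between 19.01 and 25.1 CPM and between 21.3 and 27.2 CPM. Of 7 MHC class II genes, 1 was called, *Cd74*, which rose by 0.54 on the log2 scale (FDR = 0.0400, edgeR). Of 6 tested basophil and mast-cell markers 2 were called, *Mcpt8* (1.43 higher, FDR = 0.0341) and *Prss34* (1.72 higher, FDR = 0.0153), on the log2 scale in edgeR. *Cpa3* of the same list had a log2 fold change of -0.26 (FDR = 0.721, edgeR). Over all tested genes, 3.75% were called higher with LME-sEVs. B cells, macrophages, and dendritic cells also make *Icosl*, *Cd80*, *Cd86*, and *Pdcd1lg2*, and the part of all these cells in the values below was not tested. In bulk RNA, fewer cells of a type and less RNA per cell cannot be told apart.

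None of the ligand genes differed between the treatments after correction. Of the 10, 9 reached a mean of 5 counts per library and were tested, and 0 of 9 had an FDR under 0.05 in edgeR's quasi-likelihood test, whereas 8.96% of the 12623 tested genes did. With a log2 fold change beyond 1 required as well, the members called were 0 of 9 and the share of all tested genes was 1.28%. DESeq2, limma-voom, and edgeR's likelihood ratio test also called 0. At an unadjusted p under 0.05 there were 2 of 9, *Icosl* and *Pdcd1lg2*, both lower with LME-sEVs, beside 22.7% of all tested genes in either direction and 12.3% in that direction. In the same 2 the groups did not overlap, as in 20.3% of all tested genes, or 10.8% in that direction. Both shares of members were thus drawn from 2 genes and stood close to the share among all genes. The median log2 fold change of the 9 was -0.15, with 6 lower and 3 higher, and that of all tested genes was 0.01.

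**Figure D1:**
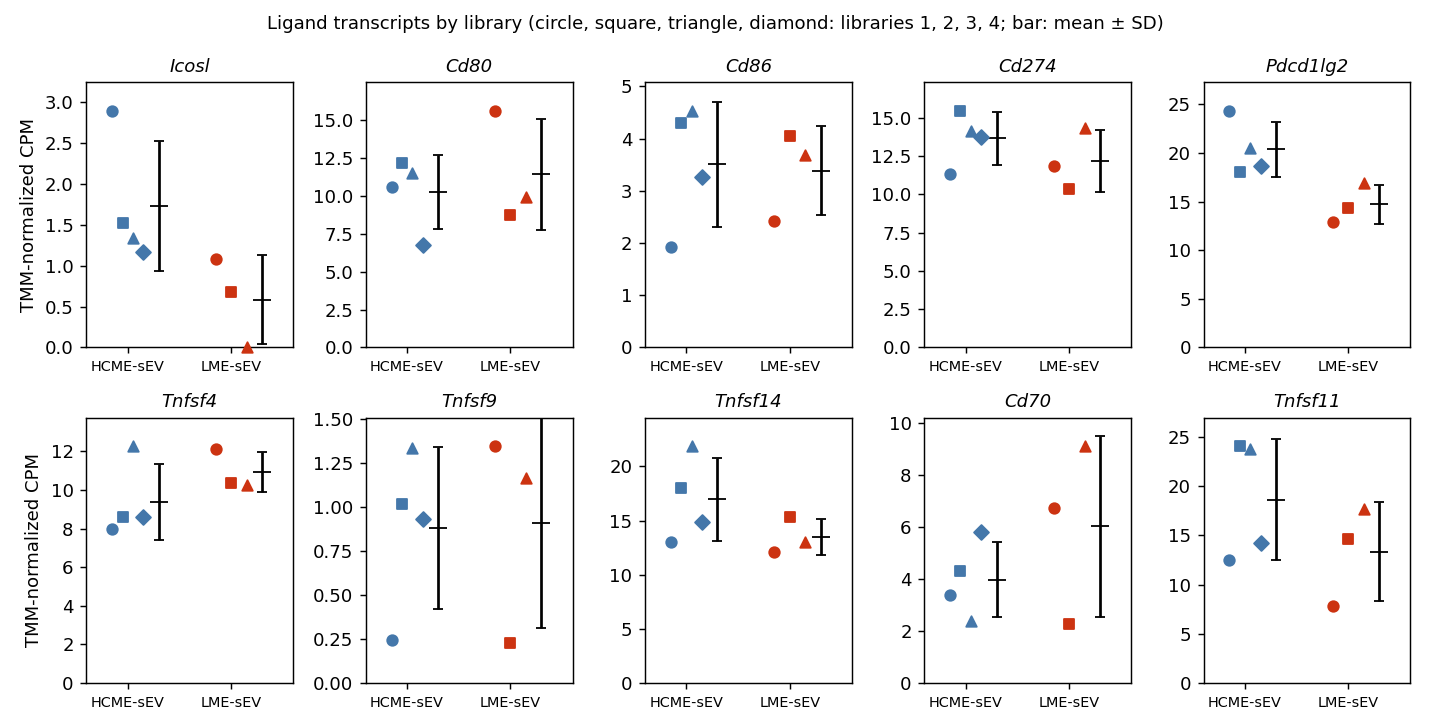
Level of each ligand transcript in TMM-normalized CPM (vertical axes, each from 0) in 4 HCME-sEV libraries (blue) and 3 LME-sEV libraries (red), with the symbol giving the library number and the bar the mean ± SD. *Icosl* and *Pdcd1lg2* had all 3 LME-sEV values below the 4 HCME-sEV values, and the groups of the other 8 genes overlapped.

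*Icosl* encodes the ligand of ICOS, a receptor that appears on T cells once they are activated. It was counted 12, 6, 5, and 5 times in HCME-sEV libraries 1 to 4, which is 2.89, 1.52, 1.33, and 1.16 CPM. LME-sEV libraries 1 to 3 had 4, 3, and 0 counts, or 1.08 and 0.674 CPM in the first 2 and none in the third. Every LME-sEV library was thus below every HCME-sEV library, but neighbouring libraries of the 2 groups were a single count apart. The study names *Icosl* among its repressed genes on these same libraries, so its direction here is not independent evidence. Its cutoff was an FDR under 0.05 and a log2 fold change beyond 1, whereas *Icosl* was not called here. Its log2 fold change of -1.65 had a 95% interval from -3.04 to -0.26 (FDR = 0.136, edgeR). Without LME-sEV library 3 it was -0.98 (FDR = 0.452), so much of the estimate came from the library without a count. The exact permutation test gave p = 0.0286, the smallest that 35 splits of 7 libraries allow (two-sided, uncorrected).

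*Cd80* and *Cd86* encode the ligands of CD28 and CTLA-4, which compete for them. *Cd80* was at 10.6, 12.2, 11.5, and 6.75 CPM in HCME-sEV libraries 1 to 4 and at 15.6, 8.76, and 9.89 CPM in LME-sEV libraries 1 to 3. Its highest value came from LME-sEV library 1 and its lowest from HCME-sEV library 4, with the others between. The log2 fold change was 0.14 with a 95% interval from -0.34 to 0.61 (FDR = 0.780, edgeR), and it turned to -0.12 without LME-sEV library 1 and to -0.02 without HCME-sEV library 4. *Cd86* was scarcer, at 1.93, 4.31, 4.53, and 3.26 CPM with HCME-sEVs and 2.42, 4.05, and 3.68 CPM with LME-sEVs. The libraries numbered 1 were the lowest of each group, and the remaining values mixed. Its log2 fold change of -0.02 had an interval from -0.75 to 0.70 (FDR = 0.982, edgeR) and changed sign under 5 of 17 other settings. As folds, the intervals ran from 0.793 to 1.53 for *Cd80* and from 0.596 to 1.63 for *Cd86*, so neither gene was shown to stay level.

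*Cd274* and *Pdcd1lg2* encode the ligands of PD-1 and lie next to each other on chromosome 19 of GRCm38 (GENCODE vM21 annotation), from 29367455 to 29388095 and from 29410919 to 29471161, on the same strand and with 0 protein-coding genes in the 22.8 kb between them. *Pdcd1lg2* had the highest mean of the 10 ligands, with 24.3, 18.0, 20.5, and 18.6 CPM in HCME-sEV libraries 1 to 4 and 12.9, 14.4, and 16.9 CPM in LME-sEV libraries 1 to 3. The highest LME-sEV library lay just below the lowest HCME-sEV library. Means were 20.4 ± 2.85 CPM (SD, n = 4) and 14.7 ± 1.999 CPM (SD, n = 3), 0.729 times as much with LME-sEVs. The log2 fold change was -0.46 with a 95% interval from -0.78 to -0.13, and the FDR of 0.0749 in edgeR missed the threshold. Leaving out 1 library at a time gave log2 fold changes between -0.57 and -0.36, negative in all 7 fits, and the exact permutation p was 0.0286, the smallest possible (two-sided, uncorrected).

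*Cd274* was at 11.3, 15.5, 14.1, and 13.7 CPM with HCME-sEVs and at 11.8, 10.3, and 14.4 CPM with LME-sEVs. The highest LME-sEV library exceeded 3 of the 4 HCME-sEV libraries. The log2 fold change of -0.15 had an interval from -0.52 to 0.21 (FDR = 0.660, edgeR), which leaves room for a level between 0.698 and 1.16 times that with HCME-sEVs. Whether the 2 neighbours changed unequally was tested on their ratio, described with the other pairs below. Exons of an annotated gene on the opposite strand overlap those of *Cd274*. That gene was not analysed here, and whether reads were counted by strand is not given in the sources used here.

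*Tnfsf11* encodes RANKL, which acts through RANK and is known from bone resorption and lymph node development, and which activated T cells make. It was at 12.5, 24.1, 23.7, and 14.2 CPM in HCME-sEV libraries 1 to 4 and at 7.80, 14.6, and 17.6 CPM in LME-sEV libraries 1 to 3. HCME-sEV libraries 2 and 3 were the highest and LME-sEV library 1 the lowest, and the other 4 libraries of both groups lay together. The log2 fold change of -0.43 had an interval from -0.93 to 0.07 (FDR = 0.300, edgeR) and was -0.19 without LME-sEV library 1. *Tnfsf14* encodes LIGHT, which binds HVEM and the lymphotoxin beta receptor. It had 13.0, 18.0, 21.9, and 14.9 CPM with HCME-sEVs and 12.1, 15.3, and 13.0 CPM with LME-sEVs, a log2 fold change of -0.32 with an interval from -0.69 to 0.05 (FDR = 0.307, edgeR). Its 2 highest libraries were HCME-sEV libraries 3 and 2, which were also the 2 highest for *Tnfsf11*.

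*Cd70* encodes the only ligand of CD27 and is made by lymphocytes after activation. It was at 3.37, 4.31, 2.40, and 5.82 CPM in HCME-sEV libraries 1 to 4 and at 6.73, 2.25, and 9.11 CPM in LME-sEV libraries 1 to 3. The LME-sEV group held both the 2 highest values and the lowest of all 7. The log2 fold change of 0.60 had an interval from -0.18 to 1.38 (FDR = 0.365, edgeR), and it was 0.99 without LME-sEV library 2 and 0.12 without LME-sEV library 3. *Tnfsf4* encodes OX40L, the ligand of OX40 and more usual on antigen-presenting cells. Its levels were 7.95, 8.62, 12.3, and 8.61 CPM with HCME-sEVs and 12.1, 10.3, and 10.3 CPM with LME-sEVs. All 3 LME-sEV libraries were above 3 of the HCME-sEV libraries and below HCME-sEV library 3, and the log2 fold change was 0.22 with an interval from -0.19 to 0.63 (FDR = 0.557, edgeR).

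*Tnfsf9* encodes 4-1BBL, the ligand of 4-1BB, and was the rarest of the 10. It had 1, 4, 5, and 4 counts in HCME-sEV libraries and 5, 1, and 6 counts in LME-sEV libraries, a mean of 3.71 counts, and was not tested. Both groups held a library with 1 count, under the limit of 3. Its exons overlap those of *Gm11110* on the opposite strand, which had 108 counts over the 7 libraries against 26 for *Tnfsf9*.

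**Figure D2:**
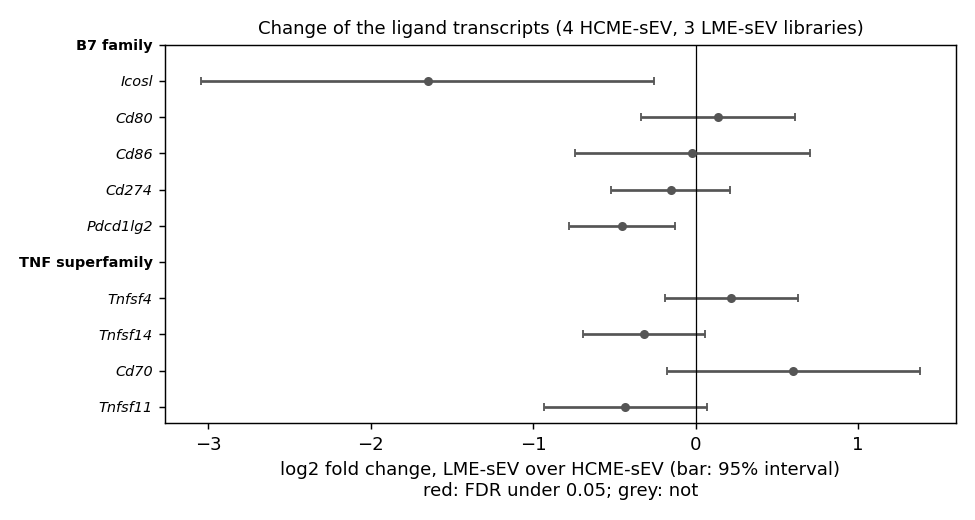
Log2 fold change of LME-sEVs over HCME-sEVs (horizontal axis) with its 95% interval for the 9 tested ligand genes, from edgeR's quasi-likelihood fit. All points are grey because 0 of 9 had an FDR under 0.05; only the intervals of *Icosl* and *Pdcd1lg2* lie below 0.

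A read from the 3′ end is counted once per captured molecule and gene length does not enter, so levels of different genes were compared as CPM. Over all 7 libraries *Pdcd1lg2* (18.0 ± 3.81 CPM, SD, n = 7), *Tnfsf11* (16.4 ± 5.93), and *Tnfsf14* (15.5 ± 3.44) led. The order of these 3 was not stable, since *Pdcd1lg2* exceeded *Tnfsf11* in 3 libraries and *Tnfsf11* exceeded *Tnfsf14* in 3. *Cd274* followed with 13.0 ± 1.87 CPM and was below *Tnfsf14* and above *Cd80* in 6 of 7 libraries each. *Cd80* (10.8 ± 2.79 CPM) and *Tnfsf4* (10.02 ± 1.72 CPM) could not be ordered, *Cd80* being higher in 3 of 7. The clearest step came next, as *Tnfsf4* exceeded *Cd70* (4.86 ± 2.51 CPM) in 7 of 7 libraries. *Cd86* averaged 3.45 ± 0.98 CPM, *Icosl* 1.24 ± 0.89 CPM, and *Tnfsf9* 0.893 ± 0.48 CPM, so the rarest 2 were near the limit of 3 counts. Together the 10 genes amounted to between 88.0 and 114 CPM with HCME-sEVs and between 80.9 and 96.0 CPM with LME-sEVs.

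The ligands differed in how far replicates exceeded counting noise. Within groups, the chi-square per degree of freedom, which is near 1 where libraries differ by counting noise alone, was 1.17 for *Cd274*, 1.32 for *Cd86*, 1.47 for *Pdcd1lg2*, and 1.90 for *Icosl*. It was 3.37 for *Cd80*, 4.99 for *Cd70*, and 7.98 for *Tnfsf11*. The chi-square grows with the count where the relative spread between libraries is equal, so it does not rank these genes by relative spread. The coefficient of variation between replicates beyond counting noise, from edgeR, was 0.249 for *Icosl*, 0.177 for *Cd86*, 0.273 for *Cd70*, and 0.186 for *Tnfsf11*. The parts of low counts and of replicate spread in the wide intervals were not tested. HCME-sEV library 1 was the lowest of its group for 6 of the 10 genes and the highest for *Icosl* and *Pdcd1lg2*, the 2 genes whose groups did not overlap. Without that library the log2 fold change of *Pdcd1lg2* was -0.36 (FDR = 0.201, edgeR). *Icosl* fell below the minimum count in that fit and was not tested.

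Whether 2 related ligands changed unequally was tested on the log2 ratio of their counts in each library, for 5 pairs. *Cd274* over *Pdcd1lg2* had ratios of -1.10, -0.22, -0.53, and -0.44 with HCME-sEVs and -0.12, -0.47, and -0.23 with LME-sEVs. All 7 were negative, so *Pdcd1lg2* was the more abundant PD-1 ligand transcript in every library, and the groups overlapped. The difference of 0.29 (standard error 0.21) had an exact permutation p of 0.286 (two-sided; 0.657 after Benjamini-Hochberg adjustment over the 5 pairs). An unequal change of the 2 neighbours was therefore not shown. *Cd80* exceeded *Cd86* in 7 of 7 libraries, with a mean log2 ratio of 1.55 ± 0.59 (SD, n = 4) and 1.71 ± 0.81 (SD, n = 3). For this pair the difference was 0.16 (standard error 0.55, exact permutation p = 0.657).

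*Tnfsf9*, *Cd70*, and *Tnfsf14* lie in this order on chromosome 17, with gaps of 38.2 and 39.7 kb and 0 protein-coding genes between neighbours. *Cd70* is at 57145997 to 57149777, *Tnfsf9* at 57105325 to 57107757, and *Tnfsf14* at 57189492 to 57194177. *Cd70* over *Tnfsf14* showed the largest difference of the 5 pairs, 0.75 with a standard error of 0.78, from a mean log2 ratio of -2.10 ± 0.74 (SD, n = 4) to -1.35 ± 1.19 (SD, n = 3). LME-sEV library 2, at -2.71, lay among the HCME-sEV libraries, and the exact permutation p was 0.343. Without LME-sEV library 2 the difference was 1.43 (exact p = 0.0667, the smallest that 15 splits allow). *Cd70* over *Tnfsf9* and *Tnfsf4* over *Tnfsf9* differed by 0.50 (standard error 0.56) and 0.29 (standard error 0.73), with exact permutation p of 0.571 and 0.600. The adjusted p was 0.657 for each of the 5 pairs.

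**Figure D3:**
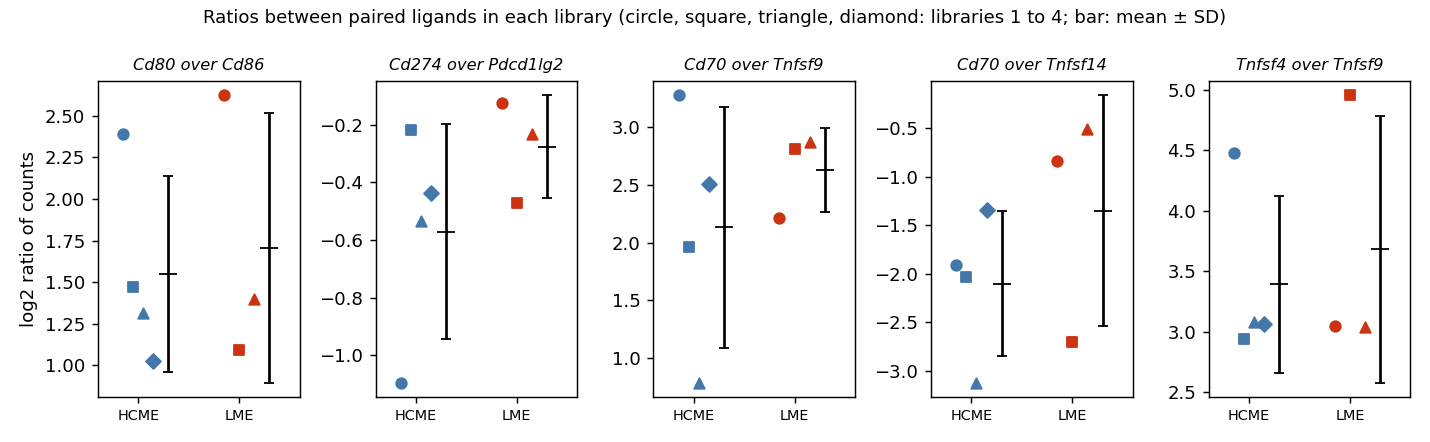
Log2 ratio of the counts of paired ligands (vertical axes, with 0.5 counts added to each) in 4 HCME-sEV libraries (blue) and 3 LME-sEV libraries (red), with mean ± SD. The groups overlapped in all 5 pairs. *Cd274* over *Pdcd1lg2* was below 0 and *Cd80* over *Cd86* above 0 in all 7 libraries.

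Of the 12 receptors of these ligands 8 were tested, and 4 of the 8 rose with LME-sEVs whereas 0 fell (FDR under 0.05, which 3.75% of all tested genes reached in that direction). *Pdcd1*, encoding PD-1, averaged 37.1 ± 2.28 CPM with HCME-sEVs (SD, n = 4) and 59.1 ± 10.8 CPM with LME-sEVs (SD, n = 3), a log2 fold change of 0.68 (FDR = 0.00128, edgeR). *Ctla4* rose by 0.58 on the log2 scale (FDR = 0.00307), *Cd27* by 0.45 (FDR = 0.00945), and *Cd28* by 0.34 (FDR = 0.0208), all from edgeR. In these 4 the LME-sEV libraries all lay above the HCME-sEV libraries, as in 9.49% of all tested genes. The inhibitory PD-1 and CTLA-4 and the costimulatory CD28 and CD27 thus moved the same way, and their ligands *Cd274*, *Pdcd1lg2*, *Cd80*, *Cd86*, and *Cd70* had FDRs from 0.0749 to 0.982. For *Cd27* the study reports the other direction, on other samples. There its RNA was lower in CD8+ T cells of mice injected with LME-sEVs, and CD27 decreased in a separate ex vivo experiment. The reason for this difference was not tested. *Icos* had a log2 fold change of 0.22 (FDR = 0.0826), *Tnfrsf9* (4-1BB) of -0.25 (FDR = 0.0804), *Tnfrsf4* (OX40) of -0.18 (FDR = 0.242), and *Rgmb*, a further partner of PD-L2, of -0.31 (FDR = 0.745). *Tnfrsf14*, *Ltbr*, and *Tnfrsf11a*, the receptors of LIGHT and RANKL, had at most 4 counts in a library, and *Tnfrsf11b*, the soluble decoy of RANKL, had 9, 2, 5, and 4 counts with HCME-sEVs and 2, 0, and 1 with LME-sEVs. These 4 were not tested. Of 9 T-cell identity genes, 2 were called, *Cd3e* and *Cd3g*, both higher with LME-sEVs. The summed level of the 9 was between 2660 and 2792 CPM with HCME-sEVs and between 2866 and 3233 CPM with LME-sEVs, and *Cd3e* rose by 0.36 and *Cd3g* by 0.49 on the log2 scale (FDR = 0.0106 and 0.0405, edgeR), while *Thy1* had a log2 fold change of -0.07 (FDR = 0.673). Their part in the receptor values was not tested. Without LME-sEV library 2 the receptors called higher were 2. *Cd28* (log2 fold change 0.30, FDR = 0.119, edgeR) and *Cd27* (0.35, FDR = 0.0990) then missed the threshold. *Cd28* also missed it without LME-sEV library 3 (0.32, FDR = 0.0974, edgeR). Higher calls over all tested genes fell in these 2 fits as well, from 473 to 168 and 195.

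Of 13 other TNF superfamily ligands, 8 were tested and 4 fell, with 0 higher (FDR under 0.05, beside 5.21% of all tested genes in that direction), and the median log2 fold change of the 8 was -0.44. *Lta*, encoding lymphotoxin alpha, had means of 62.8 ± 11.5 CPM with HCME-sEVs (SD, n = 4) and 27.9 ± 3.74 CPM with LME-sEVs (SD, n = 3), and fell by 1.17 on the log2 scale (FDR = 5.67e-05, edgeR). *Fasl*, the ligand by which killer cells trigger Fas, fell by 0.54 (FDR = 0.0119), *Tnf* by 0.48 (FDR = 0.0126), and *Tnfsf8*, the ligand of CD30, by 0.45 (FDR = 0.0209), all from edgeR. In these 4 the groups did not overlap, as in 10.8% of all tested genes in that direction. *Tnfsf13b*, encoding BAFF, a survival factor of B cells, lay the other way, with 2 to 4 counts with HCME-sEVs and 8 to 11 with LME-sEVs, a log2 fold change of 1.53, and an FDR of 0.0546 (edgeR). *Tnfsf11* had a log2 fold change close to those of *Tnf* and *Tnfsf8* but a standard error of 0.24, against 0.11 for *Tnf* and 0.12 for *Tnfsf8*. Whether the members and the other TNF ligands differed was not tested. The count of 4 depended on single libraries: it was 1 without LME-sEV library 2 and 2 without LME-sEV library 3. Lower calls over all tested genes fell in these fits as well, from 658 to 223 and 263. With each library left out, log2 fold changes ranged from -1.25 to -1.05 (*Lta*), -0.60 to -0.52 (*Fasl*), -0.54 to -0.40 (*Tnf*), and -0.53 to -0.35 (*Tnfsf8*).

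**Figure D4:**
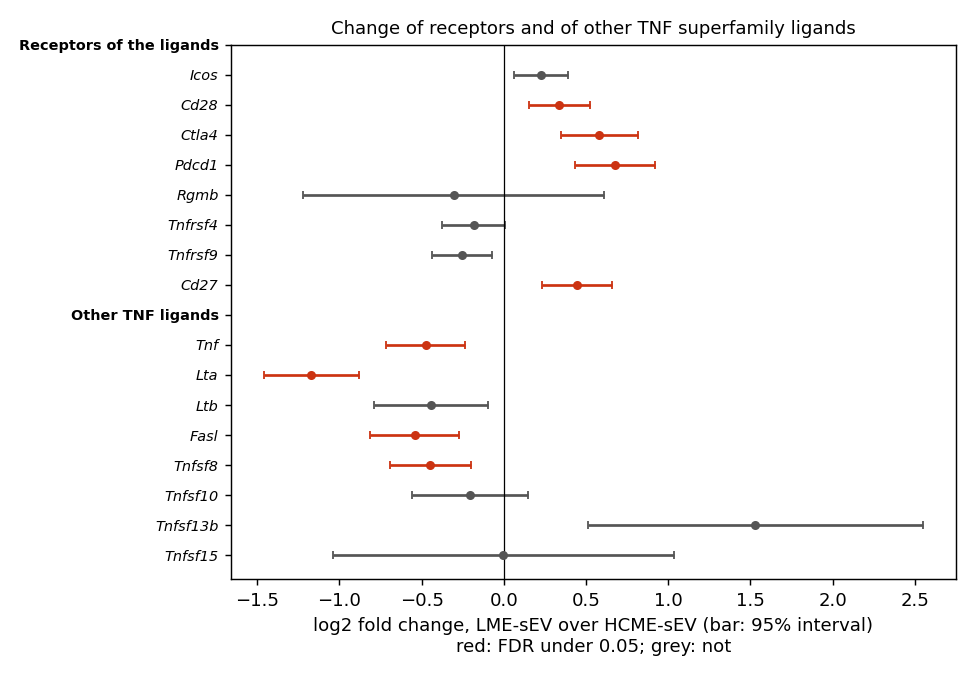
Log2 fold change of LME-sEVs over HCME-sEVs (horizontal axis) with 95% intervals for the 8 tested receptors of the ligands and the 8 tested other TNF superfamily ligands. Red marks an FDR under 0.05, reached by 4 receptors that were higher and 4 TNF ligands that were lower with LME-sEVs.

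Among 14 other ligands of costimulatory or inhibitory receptors in the table, 9 were tested and 1 rose, *Pvr*, the ligand of CD226, CD96, and TIGIT. Its mean was 16.5 ± 0.54 CPM with HCME-sEVs (SD, n = 4) and 26.2 ± 1.85 CPM with LME-sEVs (SD, n = 3), a log2 fold change of 0.66 (FDR = 0.00317, edgeR), and its groups did not overlap. Calls in this direction were 3.75% of all tested genes, and groups apart in this direction 9.49%, so 1 of 9 is not far from the background. *Vtcn1* and *Btnl2* were at 0 in all libraries, which allows up to 0.807 CPM in the shallowest. The median of the 9 was 0.03.

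Interferon gamma, acting through JAK kinases and IRF1, is a well-known inducer of *Cd274*. Of 11 genes of this path and of PD-L1 stabilization, 4 passed the test, 3 higher and 1 lower, beside 8.96% of all tested genes in either direction, 3.75% higher and 5.21% lower. *Ifng* itself fell by 0.39 on the log2 scale (FDR = 0.0288, edgeR), with a mean of 532 ± 71.9 CPM with HCME-sEVs (SD, n = 4), one of 404 ± 71.0 CPM with LME-sEVs (SD, n = 3), and groups that overlapped. *Ifngr1* rose by 0.32 (FDR = 0.0274), *Irf2* by 0.33 (FDR = 0.0196), and *Stat3* by 0.49 (FDR = 6.41e-04), all from edgeR. Without LME-sEV library 2 *Stat3* alone of these 4 passed, and the count was also 1 without HCME-sEV library 2. Calls over all tested genes fell in these fits as well, from 1131 to 391 and 723. *Irf1* had a log2 fold change of -0.04 (FDR = 0.768, edgeR). Of 8 NF-kappaB and NFAT genes, 0 were called and 0 had an unadjusted p under 0.05 in edgeR.

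The study follows miR-155 among the microRNAs that LME-sEVs carry, so matches to its seed were sought in the transcripts of the 10 ligands as a description of sequence. The mature microRNA is from RefSeq (GRCm38.p6, chr16:84714143-84714165, plus strand), printed 5′ to 3′ with the seed, bases 2 to 8, in capitals.
mmu-miR-155-5p: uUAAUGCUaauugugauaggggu
The complement of the seed, AGCATTA, was found once each in the longest 3′ UTR among complete coding transcripts (GENCODE vM21, GRCm38) of *Icosl*, *Cd274*, and *Tnfsf9*, 3 of the 10 genes. It was found in 9.57% of the 10780 tested protein-coding genes with a 3′ UTR, whose median length was 1197 bases. The 3′ UTRs of *Icosl*, *Cd274*, and *Tnfsf9* had 1622, 2683, and 253 bases. Lengths were not matched and *Tnfsf9* was not among the tested genes, so the 2 shares are not like for like. The sites are printed 5′ to 3′ on the plus strand, with the match in capitals.
*Icosl*, chr10:78078959-78078965: gagtacaaAGCATTAcctacctg
*Cd274*, chr19:29386365-29386371: cattgtctAGCATTAcatttacc
*Tnfsf9*, chr17:57107664-57107670: cactagatAGCATTAgtaaactg
The 3 genes with a match had a log2 fold change of -1.65 (*Icosl*), one of -0.15 (*Cd274*), and too few counts to be tested (*Tnfsf9*). *Pdcd1lg2*, the other gene whose groups did not overlap, had 0 matches in a 3′ UTR of 669 bases. A match of 7 bases is a description of the annotated sequence, and the microRNA was not measured in these libraries.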

How the data were processed

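RNA was measured by QuantSeq 3′ RNA-seq with UMI in 7 libraries, which were assigned to groups by their titles in the labels. The authors deposited counts per gene symbol, made from reads trimmed with cutadapt 2.10, mapped with STAR 2.5.3a to GRCm38, collapsed with UMI-tools 1.0.0, and counted with featureCounts of Subread 2.0.0, without normalization or filter. Collapsing removes PCR copies, and 3′ reads depend on the annotated 3′ end. The annotation release is not given in the sources used here.

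Totals per library lay between 3689831 and 5030522 counts. Of the genes, 12623 averaged 5 counts or more over the libraries and were normalized with TMM and tested in edgeR 4.0.16 (glmQLFit and glmQLFTest, R 4.3.3) with no covariate and Benjamini-Hochberg adjustment over all of them, and a call had an FDR under 0.05. The 95% intervals came from the log2 fold change, its standard error, and the t quantile. Exact permutation tests used all 35 splits, on log2(CPM + 1) or on log2 ratios with 0.5 counts added. Replicates of a group differed by more than sampling noise (chi-square over its degrees of freedom 2.10 or more in every pair). The fit was tested on simulated data.

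The members and the gene lists were chosen with earlier results of these data known. Genes were named by a rule: all members, all listed receptors, up to 5 genes of each other pathway list with the smallest FDR under 0.05, from each marker list the 2 most abundant and a few defining markers, and the genes closest in pattern to a called member, of which there were none. *Irf1*, *Fcgr1*, *Vtcn1*, *Btnl2*, *Igkc*, *Itgam*, *Cd3g*, *Prss34*, *Gm11110*, *Tnfsf13b*, *Foxp3*, and *Ccr8* were named after their values were seen. Near-identical 3′ ends were sought with blastn over the last 300 bases (95% identity over 200 bases), and 0 other genes matched. Alternatives used DESeq2 1.42.0, limma 3.58.1, other normalizations and filters, the replicate block, and leaving out each library.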

Additional observations from a re-analysis of the deposited data

Results flagged for a closer look

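Of 48 genes examined in the HCME-sEV group, 4 had 1 library that stood apart. Chance alone does this in about 1 of 20 genes, here 2.4. Dividing the distance between that library and its neighbour by the spread of all 4 gave 0.846 for *Tnfsf4* (library 3 highest, at 12.3 CPM) and 0.831 for *Stat3* (library 4 highest). It was 1 for both *Cd79a* and *Cd4*, each with 2 counts in a single library of the group and 0 in the others. Without HCME-sEV library 3 the log2 fold change of *Tnfsf4* was 0.37 (FDR = 0.269, edgeR).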

How the results depend on the processing

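The number of ligand genes called was 0 under every alternative normalization, filter, and test and with each library left out, and 2 with the replicate number as a block. That fit called *Pdcd1lg2* (log2 fold change -0.50, FDR = 0.0479) and *Tnfsf11* (-0.59, FDR = 0.0168), and 11.5% of all tested genes. *Icosl* had an adjusted p in 12 of the 17 other settings and could not be called in the rest. In edgeR's likelihood ratio test *Pdcd1lg2* (FDR = 0.0509) and *Icosl* (FDR = 0.0560) missed the threshold narrowly. Neither the labels nor the data show that the numbers pair the libraries: same-numbered libraries had deviations that correlated between 0.03 and 0.15, and 1 of 3 LME-sEV libraries correlated best with its own number. The block also gave 2 calls among the other checkpoint ligands and 1 among NF-kappaB and NFAT genes. In this fit *Cd80* turned to -0.025 and *Rgmb* to 0.060. *Cd86* turned to 0.023 with library size only and to 0.030 with limma-voom. With each library left out, *Cd80* ranged from -0.12 to 0.29, *Cd86* from -0.22 to 0.15, and *Rgmb* from -0.47 to 0.082 on the log2 scale. The calls then ranged from 2 to 5 for receptors, 1 to 2 for other checkpoint ligands, 1 to 5 for other TNF ligands, and 1 to 4 for the interferon path. The difference of log2 ratios ranged from -0.30 to 0.46 for *Cd80* over *Cd86* and from -0.34 to 0.66 for *Tnfsf4* over *Tnfsf9*. The exact permutation test had p under 0.05 for 2 ligand genes in each of its 3 versions. Such a p needs groups that do not overlap, which 20.3% of all tested genes had. The share of all tested genes that would pass this test was not computed, so the 2 add nothing to the lack of overlap. Over all genes the calls were 473 higher and 658 lower, against 614 and 465 with library size only and 522 and 543 with upper-quartile scaling. *Tnfsf13b* was called higher among the other TNF ligands with library size only (FDR = 0.0495) and in edgeR's likelihood ratio test (FDR = 0.0274). All calls fell from 1131 to 723 without HCME-sEV library 2, 391 without LME-sEV library 2, and 458 without LME-sEV library 3, and those with a log2 fold change beyond 1 from 162 to 105 with DESeq2, 83 without LME-sEV library 2, and 90 without LME-sEV library 3. DESeq2 gave no adjusted p for *Icosl*. At mean counts of 3.71 to 21.0 per library, *Tnfsf9*, *Icosl*, *Cd86*, and *Cd70* can show large changes only.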
